A study of Arabidopsis thaliana with 8 samples.

Results

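The genes described here are the myrosinases and specifier genes of glucosinolate breakdown in Arabidopsis thaliana, chosen by name and locus: TGG1, TGG2, TGG4, TGG5, PEN2, ESM1, ESP, NSP1 and NSP5. Of these 9 genes, 8 were measured among 29920 loci, and TGG5 (AT1G51470) was not analysed here. They were measured in rml1 shoots (3 arrays, pools of 61, 65 and 108 shoots), wild type shoots (3 arrays of 30 shoots each), an rml1 root sample (1 array, 234 roots) and a wild type root sample (1 array, 90 roots). The rml1 (root meristemless1) mutant has a lesion in GSH1, which encodes the enzyme that starts glutathione synthesis, and it does not maintain a root meristem. The wild type was Columbia-0. No ecotype was stated for the rml1 samples. All plants were 7 days old, came from vertical plates with 1 mM KNO3, 20 µM MgSO4 and 0.5% sucrose, with no treatment stated. The series title names the redox control of auxin and strigolactone signalling in root growth as the question of the study.

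Glucosinolates are sulfur-rich thioglucosides of the Brassicales that are stored apart from their hydrolases, the myrosinases. When tissue is broken, a myrosinase removes the glucose, and the unstable aglycone rearranges to an isothiocyanate unless a specifier protein diverts it to a nitrile or epithionitrile. TGG1 and TGG2 are the myrosinases of aerial tissue and occur in guard cells and phloem-associated myrosin cells, whereas TGG4 and TGG5 are known from roots. PEN2 is an atypical myrosinase that acts on indole glucosinolates in living cells during defence. ESP (epithiospecifier protein) and the nitrile-specifier proteins NSP1 and NSP5 favour nitriles, and ESM1 (epithiospecifier modifier 1), a lipase-like protein, favours isothiocyanates. Columbia-0 is known for low ESP activity and forms mainly isothiocyanates. Isothiocyanates react readily with glutathione.

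Values are log2 RMA units, in which 1 unit is a 2-fold difference, and 3 arrays per group limit the precision. Medians of the shoot arrays lay between 3.85 and 3.89 and lower quartiles of all arrays between 2.15 and 2.37, so values under these quartiles lie near the low end of the scale. Probes differ in their response between genes, so levels were compared between arrays and not between genes. The organ labels fitted the photosynthesis and endodermis markers. The 6 photosynthesis genes averaged 8.68 in the rml1 root and 8.06 in the wild type root. Their averages were 12.47 to 12.51 in the shoots of rml1 and 12.54 to 12.61 in those of the wild type. The endodermis list of 8 genes averaged 6.47 in the rml1 root and 8.42 in the wild type root, against 4.79 to 5.20 in the shoots of rml1 and 4.57 to 4.66 in those of the wild type. All 6 root hair genes were at least 1 unit higher in the root than in the shoots of each genotype. Root cap and root tip genes separated the organs less. By this margin 3 of 8 were higher in the wild type root and 2 in the rml1 root. SCR was lower in both roots but by less than 1 unit (log2 -0.465 in rml1 and -0.359 in the wild type). In bulk organs, fewer cells of a type and less RNA per cell cannot be told apart.

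The comparison of organs asked where each gene is expressed. TGG1 and ESM1 were far lower in roots than in shoots, TGG4 was far higher in roots, and PEN2 and NSP5 were well above the array medians in every sample. Of the 8 genes, 3 were lower by at least 1 unit in the wild type root than in wild type shoots and 1 was higher, while over all loci 9.98% were lower and 13.8% higher by this margin. In rml1 the root was lower for 3 genes and higher for 2, against 9.5% and 10.6% of all loci. Each root group had 1 array, so these differences carry no test. The plants were divided into roots and shoots at harvest, and the 234 rml1 roots and 90 wild type roots equal the summed shoots of their genotype. Each root sample may thus be a pool of the seedlings behind the 3 shoot replicates, which the labels do not state.

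**Figure D1:**
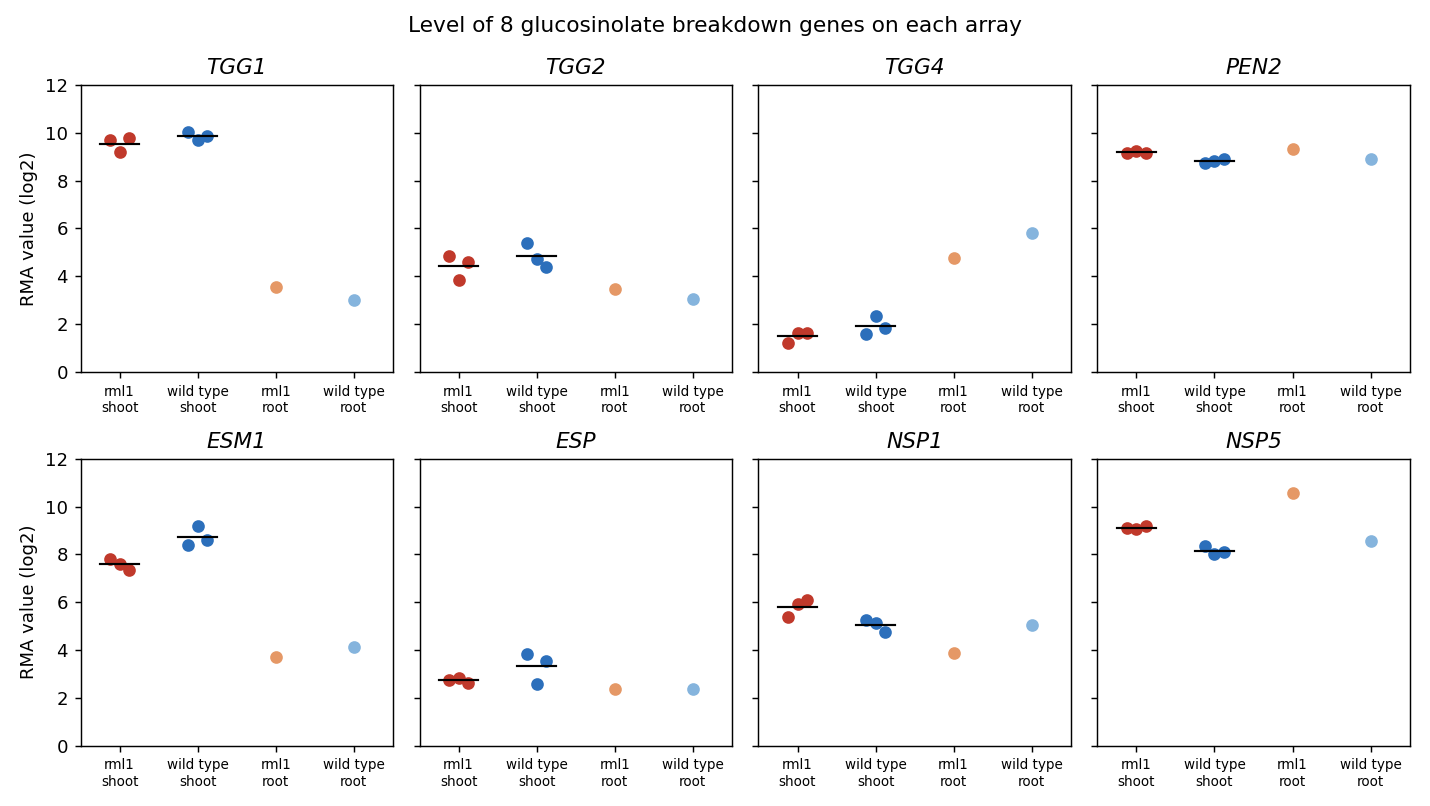
RMA value (log2, vertical axis) of the 8 measured genes on each array, grouped as rml1 shoot, wild type shoot, rml1 root and wild type root. Points are arrays and horizontal lines are means of 3 shoot arrays. TGG1 lies above 9 in all shoots and below 4 in both roots, while NSP5 is highest in the rml1 root.

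TGG1 (AT5G26000) had 3.57 in the rml1 root, against 9.70, 9.18 and 9.76 in the rml1 shoots. The wild type had 3.01 in the root, against 10.04, 9.71 and 9.85 in the shoots. Both roots lay below every shoot array, and the level in the root was 63.0-fold lower in rml1 (log2 -5.98) and 116-fold lower in the wild type (log2 -6.85). Both root values lay below the median of their array, so the size of these folds is uncertain. TGG2 (AT5G25980), whose locus lies close to TGG1, had 3.46 in the rml1 root, against 4.85, 3.83 and 4.59 in the rml1 shoots. The wild type values were 3.06 in the root, against 5.41, 4.72 and 4.38 in the shoots. It followed the same order at a smaller distance, with root minus shoot differences of -0.96 for rml1 and -1.77 for the wild type. TGG1 and TGG2 are close relatives, and a probe may respond to both.

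TGG4 (AT1G47600), the root myrosinase, had 4.78 in the rml1 root, against 1.21, 1.62 and 1.64 in the rml1 shoots. Wild type plants had 5.83 in the root, against 1.60, 2.33 and 1.85 in the shoots. The roots were 9.79-fold higher in rml1 (log2 3.29) and 14.9-fold higher in the wild type (log2 3.90). The shoot values lay below the lower quartile of their array in each shoot sample except wild type replicate 2, so the size of these folds is uncertain.

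PEN2 (AT2G44490) varied little between organs, with 9.32 in the rml1 root against a mean of 9.18 ± 0.05 in rml1 shoots (SD, n = 3). The wild type root had 8.89 against a mean of 8.83 ± 0.09 in shoots (SD, n = 3), and the root lay within the range of the shoots. Quantile normalization of all 8 arrays turned this wild type difference of 0.06 to -0.07, and centring the arrays on their medians gave -0.07 as well.

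Of the specifier genes, ESM1 (AT3G14210) had 3.73 in the rml1 root against a mean of 7.58 ± 0.23 in rml1 shoots (SD, n = 3). The wild type root had 4.11 against a mean of 8.72 ± 0.42 in shoots (SD, n = 3). The level in the root was 14.4-fold lower in rml1 (log2 -3.85) and 24.4-fold lower in the wild type (log2 -4.61), next after TGG1 in size. The rml1 root value of ESM1 lay below the median of its array and the wild type root value just above. The size of these folds is thus uncertain. ESP (AT1G54040) was low in every sample, with 2.39 in the rml1 root against a mean of 2.75 ± 0.10 in rml1 shoots, and 2.36 in the wild type root against a mean of 3.32 ± 0.65 in wild type shoots (SD, n = 3 each). All 8 of its values lay below the median of their array.

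NSP1 (AT3G16400) did not show the same organ difference in the 2 genotypes. It had 3.90 in the rml1 root, below every rml1 shoot (mean 5.81 ± 0.37, SD, n = 3), a difference of -1.91. In the wild type it had 5.05 in the root, within the range of the shoots (mean 5.06 ± 0.26, SD, n = 3), a difference of -0.01. NSP5 (AT5G48180) had 10.56 in the rml1 root against a mean of 9.11 ± 0.07 in rml1 shoots (SD, n = 3), a difference of 1.44. In the wild type it had 8.57 in the root against a mean of 8.16 ± 0.16 in shoots (SD, n = 3), a difference of 0.42. Both NSP5 root values lay above their shoots. Whether the organ differences of NSP1 or NSP5 differ between genotypes was not tested.

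**Figure D2:**
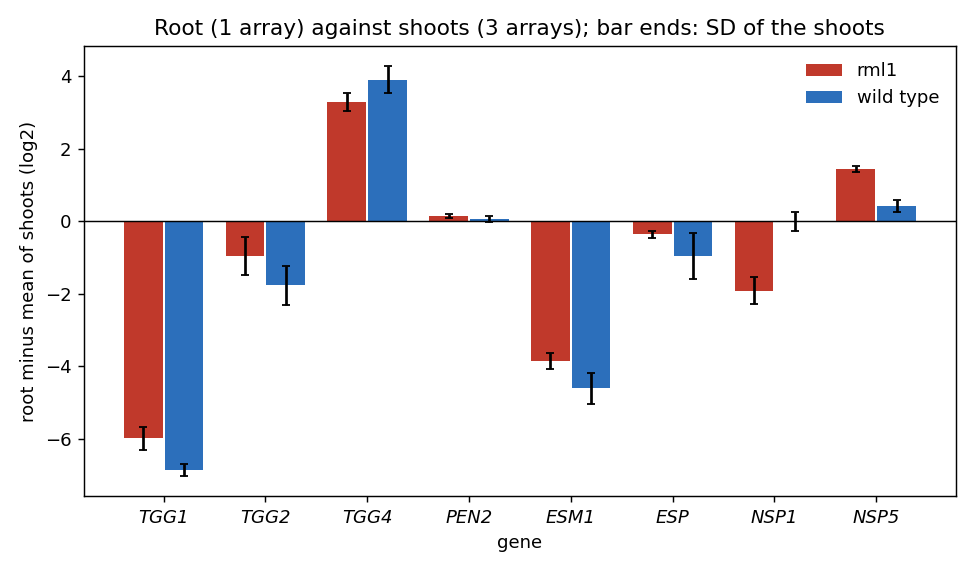
Difference between the root array and the mean of 3 shoot arrays (log2, vertical axis) of each gene in rml1 and in the wild type. Bar ends are the SD of the shoots only, as there is 1 root array per genotype. TGG1 and ESM1 lie far below 0, TGG4 far above it, and NSP1 is at -1.91 in rml1 and -0.01 in the wild type.

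The comparison of rml1 with wild type shoots asked how the mutation alters these genes in the organ with replicates. NSP5, NSP1 and PEN2 rose in rml1 shoots and ESM1 fell, while the classical myrosinases TGG1, TGG2 and TGG4 and the specifier ESP did not pass the test. Thus 3 of 8 genes were called up and 1 was called down (limma, adjusted p under 0.05 over all loci), against a background of 13.3% of loci up and 10.6% down. The groups of 3 arrays did not overlap for these 4 genes, as for 42.1% of all loci. The median difference was -0.36 over the 8 genes and -0.03 over all loci. With so many loci changed, nothing particular to these genes is read from the count, and the calls of PEN2 and NSP1 depended on single arrays.

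NSP5 had 9.10, 9.05 and 9.19 in the rml1 shoots, against 8.34, 8.03 and 8.10 in the wild type shoots. All 3 rml1 shoots were higher than every wild type shoot. It rose 1.94-fold (log2 0.96, SE 0.11, limma adjusted p = 0.00124), and the call held without any 1 array (adjusted p 0.00203 to 0.00783). ESM1 had 7.79, 7.61 and 7.34 in the rml1 shoots, against 8.37, 9.19 and 8.59 in the wild type shoots. The groups did not overlap, and ESM1 fell by 1.14 (SE 0.22, limma adjusted p = 0.0105), a level 2.20-fold higher in the wild type. This call too held without any 1 array (adjusted p 0.0105 to 0.0429). The 2 stable calls were thus a fall of ESM1, which favours isothiocyanates, and a rise of NSP5, which favours nitriles. ESP, which also favours nitriles, differed by -0.57 and did not pass. These are RNA values, and a shift in the products was not tested.

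NSP1 had 5.40, 5.94 and 6.10 in the rml1 shoots, against 5.27, 5.14 and 4.77 in the wild type shoots. The groups were separate but close, as the lowest rml1 value stood just above the highest wild type value. NSP1 rose 1.69-fold (log2 0.75, SE 0.21, limma adjusted p = 0.0391). It no longer passed when rml1 replicate 2 (adjusted p = 0.106) or 3 (0.122) or wild type replicate 2 (0.0785) or 3 (0.111) was left out, or under array weights (0.07) or quantile normalization of the shoots (0.0594). ESP had 2.75, 2.85 and 2.64 in the rml1 shoots, against 3.83, 2.59 and 3.53 in the wild type shoots. The groups overlapped because wild type replicate 2 was as low as rml1, and the difference of -0.57 did not pass (SE 0.29, limma adjusted p = 0.209, 95% interval -1.26 to 0.12). Without that array the difference was -0.94 and passed (adjusted p = 0.00732).

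Among the hydrolases, PEN2 had 9.17, 9.24 and 9.14 in the rml1 shoots, against 8.74, 8.84 and 8.92 in the wild type shoots. The rise was small but the groups did not overlap, with a fold of 1.28 (log2 0.35, SE 0.09, limma adjusted p = 0.0276). It no longer passed when any array but wild type replicate 3 was left out: the adjusted p was 0.0821, 0.0764 and 0.0654 without rml1 replicates 1, 2 and 3, and 0.0664 and 0.0713 without wild type replicates 1 and 2. It was also lost under quantile normalization of the shoots (0.0648).

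TGG1 did not pass in shoots: its means were 9.55 ± 0.32 in rml1 and 9.87 ± 0.16 in the wild type (SD, n = 3 each), a difference of -0.32 (SE 0.17, limma adjusted p = 0.235, 95% interval -0.72 to 0.09). The TGG2 means were 4.42 ± 0.53 in rml1 and 4.83 ± 0.53 in the wild type, a difference of -0.41 with an interval of -1.19 to 0.37 (adjusted p = 0.418). For TGG4 the rml1 shoots averaged 1.49 ± 0.24 and the wild type shoots 1.92 ± 0.37, a difference of -0.43 with an interval of -0.92 to 0.05 (adjusted p = 0.178). For these 3 genes the replicate ranges overlapped, and the intervals leave room for a fall of up to 1.19 units. Of 9 guard cell markers, the cells where TGG1 is known to be expressed, 1 rose (KAT2) and 2 fell (AT1G22690 and HT1), with 0 to 1 rising and 1 to 3 falling when 1 array was left out. Their mean level was 4.73 to 4.84 on the arrays of rml1 shoots, against 4.98 to 5.18 on those of wild type shoots. AT1G22690 (log2 -1.75) carried most of this gap, and the other 8 markers averaged 4.28 to 4.42 in the rml1 shoots, against 4.36 to 4.61 in the wild type shoots. Of 5 phloem markers, 3 rose (APL, SUC2 and PP2-A1) and 0 fell, with a list mean of 6.57 to 6.70 in the rml1 shoots, against 6.21 to 6.38 in the wild type shoots. Of 6 genes of the stomatal lineage, 2 rose (MUTE and TMM) and 0 fell, with a list mean of 5.25 to 5.35 in the rml1 shoots, against 4.81 to 5.24 in the wild type shoots. With 1 array left out, 0 to 2 genes rose in each of these 2 lists. The calls of APL, SUC2, PP2-A1, MUTE and TMM were also lost with the replicate number as a block. Of all loci, 13.3% rose and 10.6% fell. With so few genes, the counts of the 3 marker lists are not read against these shares. The part of these cell types in the TGG1 and TGG2 values was not tested.

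**Figure D3:**
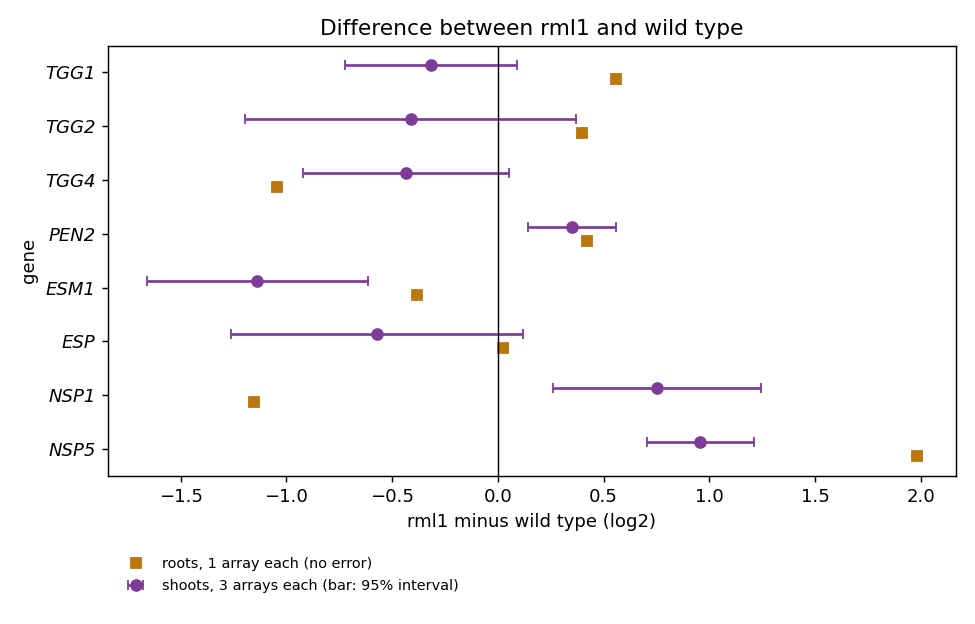
Difference between rml1 and wild type (log2, horizontal axis) of each gene in shoots (circles, 3 arrays each, with the 95% interval of the limma fit) and in roots (squares, 1 array each, no error). NSP5 is positive in both organs, ESM1 is negative in both, and NSP1 is 0.75 in shoots and -1.15 in the root.

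In roots, with 1 array per genotype and no test, NSP5 showed the largest difference of the 8 genes and the differences of TGG4 and NSP1 ran the other way. Past a margin of 1 unit, 1 gene was higher and 2 were lower in the rml1 root, against 5.25% of all loci higher and 7.33% lower. NSP5 was 3.95-fold higher in rml1 (10.56 in the rml1 root against 8.57 in the wild type root, log2 1.98). NSP1 was 2.22-fold higher in the wild type (3.90 in the rml1 root against 5.05 in the wild type root, log2 -1.15), opposite to its change in shoots. TGG4 was 2.06-fold higher in the wild type (4.78 in the rml1 root against 5.83 in the wild type root, log2 -1.04).

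The other differences in roots were under 1 unit. TGG1 (0.56), PEN2 (0.42) and TGG2 (0.40) were higher in the rml1 root, ESM1 (-0.38) was lower, and ESP differed by 0.02. The root values of TGG1, TGG2 and ESP lay below the median of their array, so the size of these differences is uncertain. Of the 6 photosynthesis markers, 5 were higher in the rml1 root and PSBO1 was lower (mean of all 6, 8.68 in the rml1 root against 8.06 in the wild type root). RBCS1A alone passed 1 unit (log2 1.60), the mean difference of the other 5 was 0.42, and their part in the TGG1 difference was not tested. The endodermis markers were lower by at least 1 unit in the rml1 root for 7 of 8 genes (mean 6.47, against 8.42 in the wild type root). Over all loci 7.33% were lower and 5.25% higher by at least 1 unit. The 8 genes of root cap and root tip averaged 3.56 in the rml1 root, against 4.05 in the wild type root, with 1 of 8 lower by this margin. The 6 root hair genes averaged 6.38 in the rml1 root, against 6.87 in the wild type root, with 4 lower, of which COBL9 passed 1 unit (log2 -1.29), and 2 higher (RHD6 and RSL4). The part of these cell types in the TGG4 and NSP1 differences was not tested.

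Of 17 other beta-glucosidases of this branch, 3 rose (BGLU25, BGLU28 and BGLU30), 1 fell (BGLU18) and 13 did not pass in shoots, with a median of -0.07. Over all loci 13.3% rose and 10.6% fell, so the counts of this list are close to the background. The number risen was 1 without wild type replicate 2 or 3, and the number fallen was 0 without any of the rml1 replicates. BGLU25 (AT3G03640) had the one call of this list that held under every alternative run (log2 0.73, SE 0.10, limma adjusted p = 0.00261), and it had 7.31 in the rml1 root, against 6.38 in the wild type root. BGLU28 (AT2G44460), a sulfur-starvation-induced glucosidase that can hydrolyse glucosinolates and a near neighbour of PEN2 in gene order, had 3.51, 4.37 and 3.36 in the rml1 shoots, against 2.72, 2.53 and 2.54 in the wild type shoots. It rose by 1.15 (SE 0.25, limma adjusted p = 0.0162), which no longer passed when wild type replicate 2 (0.0514) or 3 (0.0525) was left out. BGLU30 (AT3G60140), of the same response, rose by 0.52 (SE 0.14, limma adjusted p = 0.0339), which passed on leaving out rml1 replicate 2 but no other array (0.0527 to 0.0838). BGLU18 (AT1G52400), an abscisic acid glucose ester hydrolase of ER bodies, had the only fall (log2 -0.62, SE 0.17, limma adjusted p = 0.0416). That call was lost without rml1 replicate 1 (0.0978), 2 (0.0797) or 3 (0.128) or without wild type replicate 3 (0.0791).

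In the rml1 root BGLU30 and BGLU28 were far higher than in the wild type root or in shoots of either genotype. BGLU30 had 8.96 in the rml1 root, against 2.77 in the wild type root, a 73.1-fold difference. BGLU28 had 7.91 in the rml1 root, against 2.40 in the wild type root, a 45.6-fold difference. The wild type root values of both genes lay below the median of that array and near its lower quartile of 2.30, so the size of these folds is uncertain. The root beta-glucosidases BGLU21 (AT1G66270) and BGLU22 (AT1G66280) ran the other way, with log2 differences of -2.64 and -2.51. BGLU23 (PYK10), the abundant ER body glucosidase of roots, had 12.15 in the rml1 root and 12.59 in the wild type root, and it did not pass in shoots (log2 0.08, SE 0.08). TGG3 (AT5G48375) and BGLU36 (AT1G51490) were low in all samples and did not pass in shoots (log2 -0.37, SE 0.19, and -0.14, SE 0.11).

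Of 16 other specifier, lectin and lipase-like genes, 4 rose, 0 fell and 12 did not pass in shoots, with a median of 0.12, against 13.3% of all loci up and 10.6% down. An unadjusted p under 0.05 was found for 6 of the 16 with limma, close to the 36.1% of all loci. The number risen was 2 on leaving out rml1 replicate 1 or wild type replicate 2 or 3, and 1 on leaving out rml1 replicate 3, and 1 gene fell without wild type replicate 1. MVP1 (AT1G54030), a lipase-like myrosinase-associated protein, rose 1.95-fold (log2 0.97, SE 0.13, limma adjusted p = 0.00264). The nitrile-specifier relatives NSP2, NSP3 and NSP4 did not pass, with log2 differences of 0.20 (SE 0.08), -0.06 (SE 0.14) and 0.20 (SE 0.12).

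In the root, 7 of these 16 genes were lower in rml1 by at least 1 unit and 0 were higher, and the median was -0.79, against -0.01 over all loci. Over all loci 7.33% were lower and 5.25% higher by this margin. NSP3 (AT3G16390), which precedes NSP1 in gene order, had 2.76 in the rml1 root, against 6.50 in the wild type root, and was thus 13.3-fold higher in the wild type. Its rml1 root value lay below the median of that array, so the size of this fold is uncertain. NSP4 (AT3G16410), which follows NSP1, had 3.18 in the rml1 root, against 4.41 in the wild type root. The lectin genes next in this tandem array were lower too, with log2 differences of -1.10 for PBP1 and -2.34 for JAL31, and JAL35 differed by -3.37. In shoots PBP1 rose by 0.43 (SE 0.11, limma adjusted p = 0.0271), which did not pass when rml1 replicate 1 or 3 or wild type replicate 2 or 3 was left out (0.0692 to 0.0944). These neighbours are similar in sequence, so probes may respond to more than 1 of them.

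Of 10 genes of the PEN2 pathway and of ER bodies, 3 rose (CYP81F2, PEN3 and PEN1), 0 fell and 7 did not pass in shoots (median 0.26), against 13.3% of all loci up and 10.6% down. The number risen was 2 to 3 when 1 array was left out. PEN1 (log2 0.40, SE 0.11, limma adjusted p = 0.0395) passed on leaving out wild type replicate 1 but no other array. Its call was also lost under quantile normalization of the shoots and the replicate block. With limma 6 of the 10 had an unadjusted p under 0.05, against 36.1% of all loci. In the root 5 were lower in rml1 by at least 1 unit and 1 was higher, with a median of -0.83. By this margin 7.33% of all loci were lower and 5.25% higher. CYP81F2 (AT5G57220), the P450 that makes the indole glucosinolate substrate of PEN2, rose 1.53-fold (log2 0.61, SE 0.13, limma adjusted p = 0.0139) and was higher in the rml1 root by 1.56. PEN3 (AT1G59870), the transporter that exports products of the pathway, rose by 0.50 (SE 0.10, limma adjusted p = 0.0118). The methyltransferase gene IGMT1 had 4.73 in the rml1 root and 7.22 in the wild type root, and NAI1, the regulator of ER bodies, had 5.01 in the rml1 root and 7.36 in the wild type root. PCS1, the phytochelatin synthase that acts downstream of PEN2, did not pass in shoots (log2 0.28, SE 0.10).

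Among 6 genes of myrosin cell development and glucosinolate transport, 2 rose and 0 fell in shoots, or 1 rose when any array but rml1 replicate 2 was left out. With so few genes these counts are not read against the 13.3% of all loci that rose, and 3 of the 6 had an unadjusted p under 0.05 with limma, against 36.1% of all loci. GTR2 (AT5G62680), a glucosinolate transporter, rose 3.40-fold (log2 1.77, SE 0.18, limma adjusted p = 0.000834) and was 2.03-fold higher in the rml1 root. FAMA, the regulator of guard cells and myrosin cells, did not pass (log2 -0.18, SE 0.16). All 4 nitrilase genes, whose enzymes hydrolyse nitriles to acids, rose in shoots with a median of 2.12, against 13.3% of all loci risen. NIT2 (AT3G44300) was the largest, with 8.21, 7.64 and 8.99 in the rml1 shoots, against 4.05, 4.53 and 5.18 in the wild type shoots, a 12.9-fold rise (log2 3.69, SE 0.39, limma adjusted p = 0.000996). In the root 3 of the 4 were higher in rml1 by at least 1 unit, against 5.25% of all loci, and NIT2 differed by 3.16.

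Of the genes that make the substrates, many of the aliphatic branch fell in shoots, the indolic branch was mixed in shoots, and both branches had medians below 0 in the rml1 root. Whether the branches differ was not tested. Of 13 genes of aliphatic glucosinolate synthesis, 12 fell and 0 rose in shoots (10.6% and 13.3% of all loci), with a median of -1.72. Of these 13 genes, 9 were lower by at least 1 unit in the rml1 root, against 7.33% of all loci, with a median of -2.59. CYP83A1 (AT4G13770), a P450 of the core pathway, was 11.7-fold higher in wild type shoots, and BCAT4 (AT3G19710), of methionine chain elongation, was 15.7-fold higher in the wild type root. Of 11 indolic genes, 3 rose, 2 fell and 6 did not pass (median 0.18, against 13.3% of all loci up and 10.6% down), with 1 falling when rml1 replicate 1, 2 or 3 or wild type replicate 1 or 2 was left out. MYB51, an activator of the indolic branch, was higher in the rml1 root by 1.73. CYP81F4, a P450 that modifies indole glucosinolates, had 6.97 in the rml1 root, against 10.69 in the wild type root, and fell by 2.35 in shoots (SE 0.32, limma adjusted p = 0.00248). In the rml1 root 6 indolic genes were lower and 1 was higher by at least 1 unit (7.33% and 5.25% of all loci), with a median of -1.11.

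**Figure D4:**
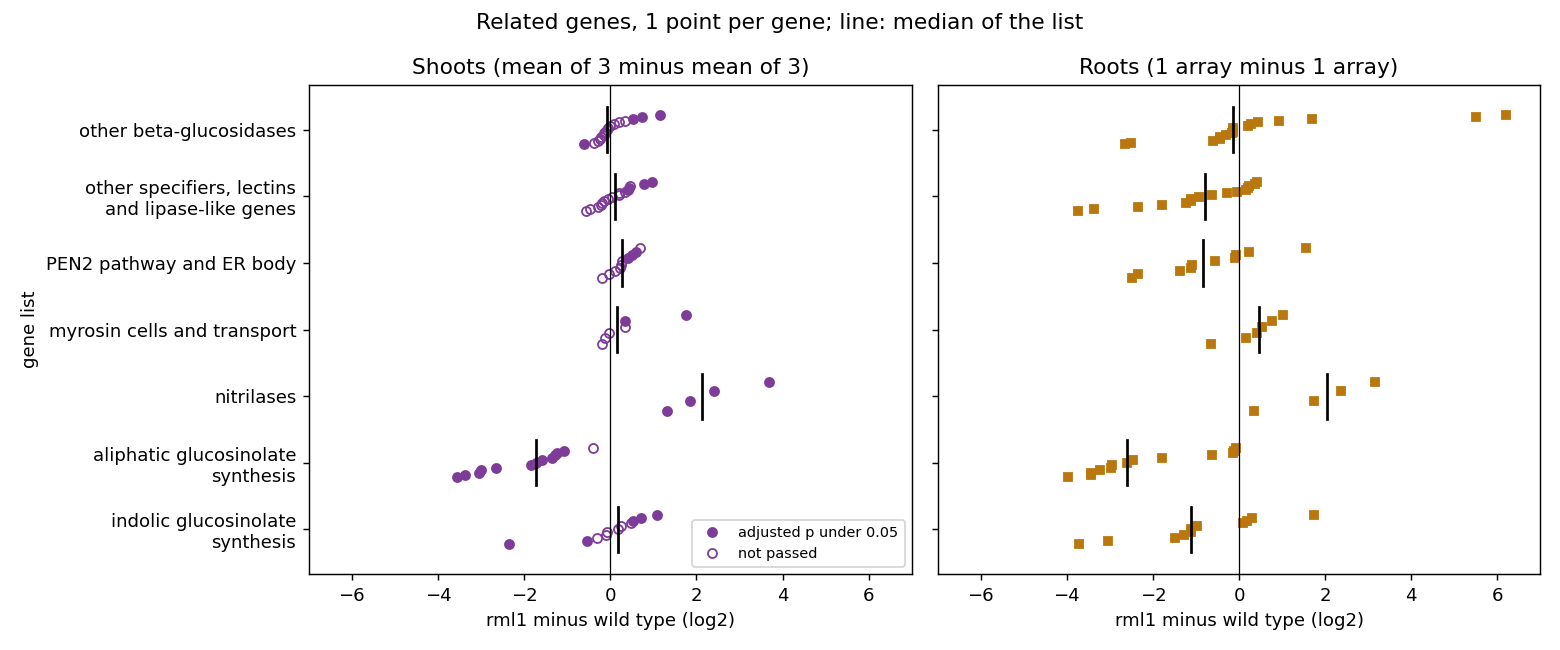
Difference between rml1 and wild type (log2, horizontal axis) of genes in 7 lists around glucosinolate breakdown, in shoots (circles, filled where the adjusted p is under 0.05) and in roots (squares, 1 array each). Vertical lines are list medians, at -1.72 in shoots for aliphatic synthesis and 2.12 for nitrilases, and the 2 squares at the far right of the upper row are BGLU28 and BGLU30.

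Profiles over the 8 arrays described which loci were most like each gene, among 13817 other loci with a span of at least 1 unit. TGG1 and ESM1 followed the contrast of organs that many loci share: 1539 loci had a Pearson r over 0.95 with TGG1, led by AT2G35260 and UMAMIT46, and 1352 with ESM1, led by AT5G24000 and AT5G23040. For TGG4 there were 964 such loci, led by AT2G02610 and AT1G50060. NSP5 had 261, led by PME31 (r = 0.992) and AT2G19540 (r = 0.992), each of them higher in the rml1 root than in any other group. Few loci resembled the remaining genes. PEN2 was closest to AT5G57060 (r = 0.983) and PTR3 (r = 0.974), TGG2 to AT4G07586 (r = 0.976) and AT1G25472 (r = 0.973), NSP1 to AT2G24290 (r = 0.957) and AT1G61795 (r = 0.955), and ESP to AT1G61300 (r = 0.967) and RK2 (r = 0.956). These values rest on 8 arrays of 4 groups and are descriptions.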

How the data were processed

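Expression was measured with 1 Affymetrix Agronomics tiling array per sample. The authors deposited log2 values made with RMA, per the submitters' processing notes. Its version, the probe assignment and the build were not given in the sources used here, and positions are therefore left out. The 30237 entries were averaged to 29920 loci by the first 9 characters of their ID (208 loci had several entries), and names came from a RefSeq table of TAIR10.1. The shoot test used limma 3.58.1 under R 4.3.3 (lmFit, eBayes, two-sided, Benjamini-Hochberg over all loci, called at an adjusted p under 0.05). Root and organ differences have no test, and 1 log2 unit was the margin. The labels call the shoot samples biological replicates. The fit was tested on simulated data with 200 of 29920 loci changed, fewer than were called in these data. It recovered 20% of changes of 0.5 units, 60% of those of 1 unit and 98% of those of 2 units. The Benjamini-Hochberg cutoff depends on the share of loci changed, so these rates do not give the recovery in the measured data.

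The 9 genes and all lists (7 related lists with 77 genes, 7 marker lists with 48 of 50 genes measured) were chosen with earlier results of these data known. The rule named all 9 genes, the remaining TGG and NSP relatives, the called list members with the largest rise and fall, those with the largest root difference past 1 unit, and the 2 loci most like each gene. Other list members were chosen after their values were seen. Alternatives were quantile normalization, median centring, a filter on low loci, array weights, eBayes options, a replicate block, leaving out each array, other thresholds, and each entry by itself. Figures were drawn with matplotlib 3.10.9.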

Additional observations from a re-analysis of the deposited data

Results flagged for a closer look

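The differences of NSP1 between rml1 and the wild type had opposite signs in the 2 organs, at 0.75 in shoots and -1.15 in the root. In shoots every rml1 array was above every wild type array, and the groups did not overlap for 42.1% of all loci. The call in shoots was lost without rml1 replicate 2 or 3 or wild type replicate 2 or 3. It was also lost under quantile normalization of the shoots, array weights and the replicate block. The root has 1 array per genotype, and the difference between the organs was not tested.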

How the results depend on the processing

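Of the 4 calls among the 8 genes, those of NSP5 and ESM1 at an adjusted p under 0.05 held under each alternative run and those of NSP1 and PEN2 did not. Of the 8 genes 3 rose, but 1 rose under quantile normalization of the shoots and 1 with the replicate number as a block; leaving out 1 array gave 1 to 2 risen and 1 to 2 fallen. Over all loci, leaving out 1 array gave 2526 to 3549 risen and 1982 to 2931 fallen, the lowest counts being those without rml1 replicate 3. At an adjusted p under 0.01, 2063 loci rose and 1520 fell, and of the 8 genes 1 rose and 0 fell. In roots, a margin of 0.5 units gave 2 genes higher in rml1, and a margin of 2 units gave 0 higher and 0 lower; for rml1 roots against rml1 shoots a margin of 2 units gave 1 higher. A stricter threshold gives fewer calls by construction; the causes of the other shifts were not tested. The replicate numbers of the genotypes are not known to pair samples: deviations of same-numbered shoots correlated at -0.035, -0.0027 and -0.098. The replicate block left 2851 loci risen and 2338 fallen, with adjusted p = 0.0803 for PEN2 and 0.0842 for NSP1. Centring on medians moved the median of all loci by -0.13 for wild type root against shoots. Genes low on the arrays, ESP and TGG4 in shoots among them, are limited by signal over background, which was not analysed here.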

Other observations

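ESP itself did not pass in shoots, but genes on both sides of it in gene order did, some up and some down. As 13.3% of all loci rose and 10.6% fell, nothing particular to this stretch is read from these calls. MVP1, which precedes ESP, had 8.74, 8.61 and 8.92 in the rml1 shoots, against 7.97, 7.84 and 7.57 in the wild type shoots. The lipase-like genes further along, AT1G54020 and GLL23, rose by 0.78 (SE 0.19, limma adjusted p = 0.0233) and 0.41 (SE 0.10, limma adjusted p = 0.0249), but neither call was stable. AT1G54020 did not pass on leaving out rml1 replicate 3 (0.0767) or wild type replicate 1 (0.0638) or 3 (0.0719), nor under array weights (0.0514). GLL23 did not pass on leaving out rml1 replicate 1 (0.0745) or 3 (0.0874) or wild type replicate 1 (0.0578) or 2 (0.0775). GLL22, the farthest of these lipase-like genes, did not pass in shoots (log2 -0.16, SE 0.32) and had 9.63 in the rml1 root, against 11.43 in the wild type root. On the other side of ESP, the next gene, AT1G54050, fell by 1.06 (SE 0.23, limma adjusted p = 0.0158), which did not pass on leaving out rml1 replicate 1 (0.055) or 3 (0.0549). ASIL1, the second gene on that side, did not pass (log2 -0.18, SE 0.11, limma adjusted p = 0.29). AT1G54070, the third gene on that side, fell by 0.65 (SE 0.13, limma adjusted p = 0.0126) and passed without any 1 array (0.0165 to 0.0466). UBP1A, the fourth, rose by 0.63 (SE 0.14, limma adjusted p = 0.0178), which did not pass on leaving out rml1 replicate 1 (0.0598) or 3 (0.0589) or wild type replicate 3 (0.0569). These genes were chosen after their values were seen, and a probe may respond to more than 1 of the lipase-like relatives.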
